A study of Mus musculus with 12 samples.

Results

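The miR-23/24/27 sister clusters are a pair of short stretches of the mouse genome that each hold a miR-23, a miR-27 and a miR-24 hairpin. The members described here are the 6 microRNAs (miRNAs) that the array files name mmu-miR-23a, mmu-miR-27a, mmu-miR-24-2*, mmu-miR-24, mmu-miR-23b and mmu-miR-27b, of 577 miRNAs on the array. They were chosen by name, and the asterisk marks a passenger strand, the arm of a hairpin that is usually discarded. All 6 passed the filter on low values, which kept a miRNA for testing if at least 1 line read it clearly over background on its 3 arrays and left 224. 5 members met that mark in each of the 4 lines, and miR-24-2* met it in 3.

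A miRNA is cut from a hairpin in a longer primary transcript and directs Argonaute proteins to messenger RNAs that pair with its seed, the bases next to its 5′ end. Hairpins that lie close together are usually cut from a common transcript, while maturation and decay can still set each mature miRNA apart. The miR-23, miR-27 and miR-24 families are known for roles in adipocyte, muscle and endothelial cells, in TGF-beta signalling and in glutamine metabolism, and members of both clusters have been studied in the growth and spread of breast cancer.

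The miRNAs of 4 mouse breast cancer lines, 67NR, 168FARN, 4TO7 and 4T1, were measured on 12 one-colour Agilent arrays, 3 for each line. The lines come from spontaneous breast cancer in the BALB/c mouse strain, of female sex, and all are labelled wild type with no treatment named. The labels call 67NR, 168FARN and 4TO7 non-metastatic and 4T1 metastatic, so that 1 line stands for metastasis and nothing else about 4T1 can be told apart from it. Total RNA extracted with Trizol was labelled from 100 ng for each array.

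The arrays of a line are named repeats, with no statement that they came from separate cultures, so a p-value here measures only the spread between these arrays. Whole cultures were extracted, and fewer cells with a miRNA cannot be told apart from less of it per cell. An array read 141 to 191 miRNAs well above background. The 7 epithelial marker miRNAs on the array, the miR-200 family with miR-203 and miR-205, reached that mark on all 3 arrays of no line. In 67NR 2 of them reached it on some arrays, and in the other lines none did on any array. The summed signal of the 7 was 20.7 to 39.5 on the 67NR arrays and at most 1.96 on the others. Of the 5 mesenchymal marker miRNAs on the array, 168FARN read 3 and each other line read miR-140 alone, and their summed signal was 258 to 413 in 168FARN and 44 to 111 elsewhere. Of the 5 haematopoietic and 4 muscle marker miRNAs on the array, only miR-142-3p and miR-206 were read on all 3 arrays of 168FARN. The other 4 and 3 were read on none of its arrays, and no other line read any marker of either list. The endothelial miR-126-3p was read in 67NR, 4TO7 and 4T1, where the summed signal of the 2 endothelial markers was 101 to 130.1, 23.4 to 29.9 and 40.7 to 52.1. The part of these markers in the results was not tested. All 67NR arrays and 168FARN replicate 1 lay on 1 slide and the other 8 arrays on a second one. The 4 control probes named hur_5 averaged 179.9 to 207 units on the 67NR arrays and 1.25 to 6.36 on the others, and the part of either fact in the results was not tested beyond the slide values given below.

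The mature sequences are shown because they decide which members can share targets and how alike a pair of probes can be. Those of 5 of the 6 members matched RefSeq entries (GRCm38.p6), and they are written from 5′ to 3′ with the seed, bases 2 to 8, in capitals. The member without a matching entry was miR-23b, so its sequence is not shown. Mature miR-23a lies at chr8:84208563-84208583, miR-27a at chr8:84208727-84208747, miR-24-2* at chr8:84208839-84208860 and miR-27b at chr13:63300760-63300780, all on the plus strand. Mature miR-24 is encoded at chr8:84208875-84208896 and again at chr13:63301251-63301272. The last line is miR-24-1*, the passenger strand of the chromosome 13 copy of miR-24, at chr13:63301213-63301235.
miR-23a: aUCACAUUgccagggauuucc
miR-27a: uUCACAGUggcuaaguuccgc
miR-27b: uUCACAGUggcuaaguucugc
miR-24: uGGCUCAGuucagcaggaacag
miR-24-2*: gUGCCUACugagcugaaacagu
miR-24-1*: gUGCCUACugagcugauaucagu

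The seeds put miR-27a and miR-27b in 1 group and miR-24-2* with miR-24-1* in another. Among the printed sequences miR-23a and miR-24 have seeds of their own. miR-23b is not printed, so whether it shares the seed of miR-23a was not compared here. miR-27a and miR-27b were identical at 20 of 21 bases and differed by C19U, with positions counted from 1 at the 5′ end and the base of miR-27a given first. The 2 hairpins of miR-24 give the same mature sequence, so no probe can tell which cluster a miR-24 molecule came from. miR-24-2* and miR-24-1* differ at 5 of the 22 bases compared, and these passenger strands do carry the cluster of origin.

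In GRCm38.p6 the hairpins Mir23a, Mir27a and Mir24-2 lie within 404 bases on chromosome 8 (chr8:84208518-84208921), and no other gene of the annotation table spans them. The nearest protein-coding genes are Zswim4, 2021 bases away at higher coordinates, and Nanos3, 31966 bases away at lower ones. Mir23b, Mir27b and Mir24-1 lie within 792 bases on chromosome 13 (chr13:63300484-63301275), inside the span of Aopep, which encodes an aminopeptidase. Fancc, a gene of the Fanconi anaemia DNA repair pathway, has its span 59 bases from the last of these hairpins, at higher coordinates. Whether the hairpins are exonic or intronic was not analysed here. The array's own probe targets are given in mm9 and lie in the same order, at chr8:86732465-86732482 for the brightest probe of miR-23a and chr13:63401841-63401857 for that of miR-23b.

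The miRNAs of the chromosome 8 cluster were low in 67NR and high in the other 3 lines. miR-23a is the first miRNA of that cluster. Its background-subtracted signal, in the array's brightness units, was 127, 141 and 117 on the 67NR arrays and 3568, 2452 and 2238 on the 168FARN arrays. It was 1748, 1947 and 1698 on the 4TO7 arrays and 1997, 2147 and 1789.7 on the 4T1 arrays. Every 67NR array lay more than an order of magnitude below every other array, and the 168FARN arrays were the brightest before arrays were scaled.

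Levels below are log2 values after each array was divided by its own 75th percentile over 170 probes, those that all 12 arrays read well above background. That percentile was 358 to 459.6 units in 67NR, 791 to 1213 in 168FARN, 599.8 to 671 in 4TO7 and 889 to 1136 in 4T1, so scaling lifts the 67NR and 4TO7 values. The level of miR-23a was -1.71 ± 0.12 in 67NR, 1.49 ± 0.08 in 168FARN, 1.52 ± 0.16 in 4TO7 and 0.93 ± 0.07 in 4T1 (SD, n = 3 each, as for all levels below). On this scale 168FARN and 4TO7 overlapped, the 4T1 arrays lay below both, and 67NR lay lowest.

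**Figure D1:**
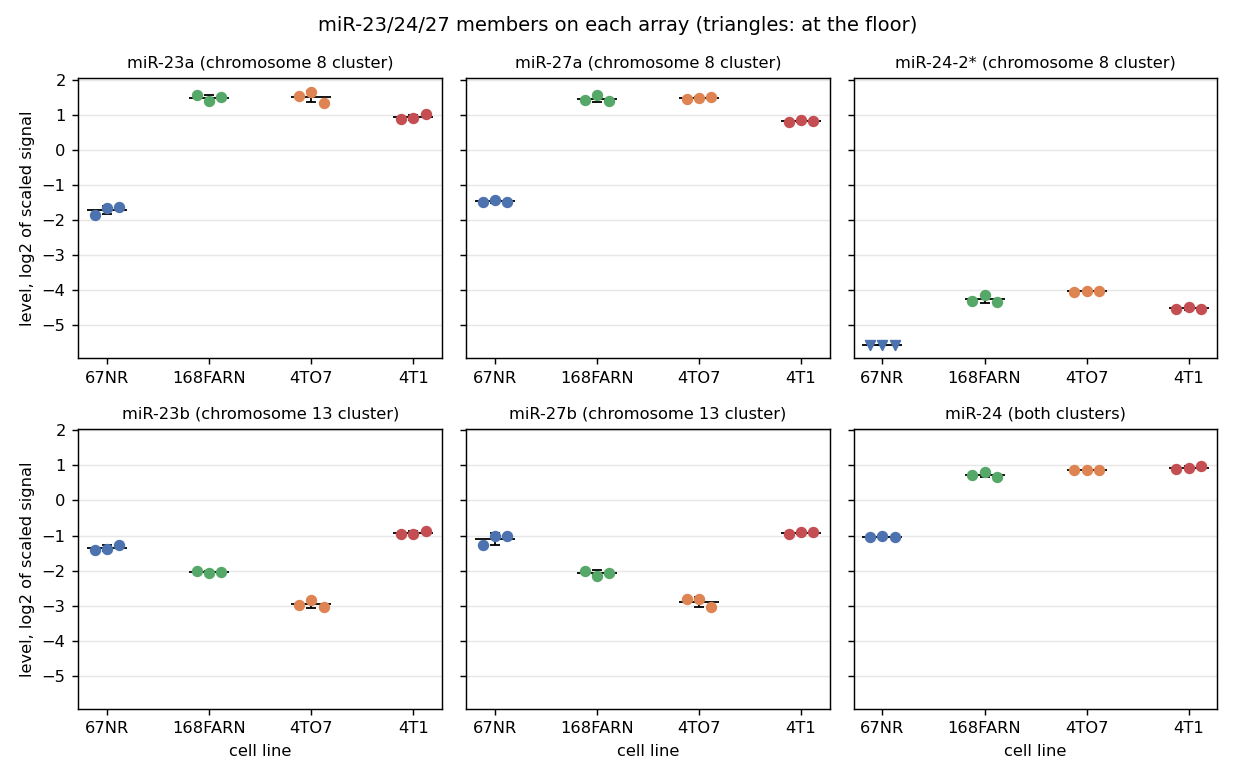
Level of each member on each array (log2 of scaled signal, vertical axis) in the 4 lines (horizontal axis); points are arrays, bars the mean with its SD, and triangles values at the floor. The upper row and miR-24 are low in 67NR, with miR-24-2* at the floor of -5.58 there, while miR-23b and miR-27b are lowest in 4TO7, at -2.95 and -2.89, and their 4T1 arrays lie above those of each other line.

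Differences were tested with limma across all 224 miRNAs, with Benjamini-Hochberg adjusted two-sided p-values, and each is a log2 difference with its SE. miR-23a was 9.18-fold higher in 168FARN than in 67NR (3.2 ± 0.09, limma adjusted p = 9.21e-12). In 4TO7 it was 9.37-fold higher than in 67NR (3.23 ± 0.09, adjusted p = 9.76e-12), and in 4T1 6.25-fold higher (2.64 ± 0.09, adjusted p = 6.46e-11). These 3 comparisons share the 67NR arrays. 4TO7 and 168FARN did not pass the threshold against each other (0.03 ± 0.09, adjusted p = 0.838). miR-23a was lower in 4T1 than in 168FARN (-0.55 ± 0.09, adjusted p = 0.000128) and than in 4TO7 (-0.58 ± 0.09, adjusted p = 0.000135), but without scaling the difference from 4TO7 was 0.14 and that of 4TO7 from 168FARN was -0.59.

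miR-27a, the second miRNA of the cluster, had nearly the same profile. Its signal was 162, 167 and 128 on the 67NR arrays, 3242, 2764 and 2090.5 on the 168FARN arrays, 1653, 1709 and 1922 on the 4TO7 arrays and 1899.7, 2060 and 1575 on the 4T1 arrays. Its level was -1.47 ± 0.04 in 67NR, 1.46 ± 0.09 in 168FARN, 1.49 ± 0.03 in 4TO7 and 0.83 ± 0.03 in 4T1. As for miR-23a, 168FARN and 4TO7 overlapped, with 4T1 below them and 67NR lowest.

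miR-27a was 7.64-fold higher in 168FARN than in 67NR (2.93 ± 0.05, limma adjusted p = 6.61e-14), 7.75-fold higher in 4TO7 (2.95 ± 0.05, adjusted p = 7.21e-14) and 4.91-fold higher in 4T1 (2.29 ± 0.05, adjusted p = 6.15e-13). It was lower in 4T1 than in 168FARN by 1.56-fold (-0.64 ± 0.05, adjusted p = 1.48e-07). It was lower in 4T1 than in 4TO7 by 1.58-fold (-0.66 ± 0.05, adjusted p = 2.49e-07), although without scaling this difference was 0.06. 4TO7 and 168FARN differed by 0.02 ± 0.05 (adjusted p = 0.75), and by -0.6 without scaling.

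miR-24-2* is the passenger strand of the third hairpin and was by far the dimmest member. Its signal was -1.89, 0.289 and -3.45 on the 67NR arrays, none of them well above background. It was 60.7, 52.6 and 39 on the 168FARN arrays, 35.9, 37.8 and 41.1 on the 4TO7 arrays and 47.5, 51.3 and 38 on the 4T1 arrays, all well above background. The 67NR values were therefore set to the floor of -5.58, and only a bound can be given against them.

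The level of miR-24-2* was -4.27 ± 0.11 in 168FARN, -4.04 ± 0.02 in 4TO7 and -4.51 ± 0.04 in 4T1. Against 67NR it was at least 1.47-fold higher in 168FARN, at least 1.72-fold higher in 4TO7 and at least 1.24-fold higher in 4T1, with limma adjusted p-values of 1.54e-10, 3.51e-11 and 1.25e-09 at the floor. Under normexp background correction the differences of 168FARN and of 4T1 from 67NR were -0.23 and -0.37, so the direction of both rests on the background correction, and that of 4TO7 was 0.2 and no longer passed (adjusted p = 0.0587). With the floor at 2 times its value 4T1 against 67NR no longer passed (adjusted p = 0.285). miR-24-2* was lower in 4T1 than in 4TO7 (-0.48 ± 0.05, limma adjusted p = 6.02e-06), but not without scaling (0.24). It was also lower in 4T1 than in 168FARN (-0.25 ± 0.05, adjusted p = 0.000698), but not after quantile normalization (0.16). 4TO7 was higher than 168FARN (0.23 ± 0.05, adjusted p = 0.00105), and lower without scaling (-0.38).

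The miRNAs of the chromosome 13 cluster followed another order, with 4TO7 lowest and 4T1 at the top. miR-23b, the first of that cluster, gave a signal of 173, 172 and 148 on the 67NR arrays and 299, 222 and 190.4 on the 168FARN arrays. It gave 76.4, 86.6 and 81.6 on the 4TO7 arrays and 558, 589 and 488 on the 4T1 arrays. The groups did not overlap before scaling, and every 4T1 array exceeded every other array.

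The level of miR-23b was -1.35 ± 0.07 in 67NR, -2.05 ± 0.02 in 168FARN, -2.95 ± 0.11 in 4TO7 and -0.93 ± 0.06 in 4T1. It was 4.05-fold higher in 4T1 than in 4TO7 (2.02 ± 0.06, limma adjusted p = 1.37e-10) and 2.17-fold higher than in 168FARN (1.12 ± 0.06, adjusted p = 6.4e-09). Against 67NR it was 1.34-fold higher in 4T1 (0.42 ± 0.06, adjusted p = 2.5e-05), a difference that was 0.05 on the gene-level total signal and 1.73 without scaling. miR-23b was lower in 4TO7 than in 168FARN (-0.9 ± 0.06, adjusted p = 4.5e-08) and than in 67NR (-1.59 ± 0.06, adjusted p = 1.14e-10). It was lower in 168FARN than in 67NR (-0.69 ± 0.06, adjusted p = 2.73e-07), but higher by 0.51 without scaling, as the signals above show.

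miR-27b, its cluster mate, gave a signal of 189.8, 223 and 177 on the 67NR arrays, 302, 211 and 190.2 on the 168FARN arrays, 85.6, 87.7 and 80.9 on the 4TO7 arrays and 564, 609 and 476 on the 4T1 arrays. Its 4T1 arrays were again above all others and its 4TO7 arrays below all others, while 67NR and 168FARN overlapped before scaling. Its level was -1.1 ± 0.15 in 67NR, -2.07 ± 0.07 in 168FARN, -2.89 ± 0.14 in 4TO7 and -0.92 ± 0.03 in 4T1.

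miR-27b was 3.92-fold higher in 4T1 than in 4TO7 (1.97 ± 0.08, limma adjusted p = 3.57e-09) and 2.21-fold higher than in 168FARN (1.15 ± 0.08, adjusted p = 1.72e-07). 4T1 against 67NR did not pass the threshold (0.18 ± 0.08, adjusted p = 0.0708), but did without 67NR replicate 2 (adjusted p = 0.0487) or 4TO7 replicate 3 (adjusted p = 0.0369). That value depended on the scaling and the signal used, at 0.89 with the percentile of all probes, 1.48 without scaling and -0.24 on the gene-level total signal. miR-27b was lower in 4TO7 than in 168FARN (-0.82 ± 0.08, adjusted p = 3.27e-06) and than in 67NR (-1.79 ± 0.08, adjusted p = 1.54e-09). In 168FARN it was lower than in 67NR (-0.97 ± 0.08, adjusted p = 4.6e-07), and higher by 0.23 without scaling.

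**Figure D2:**
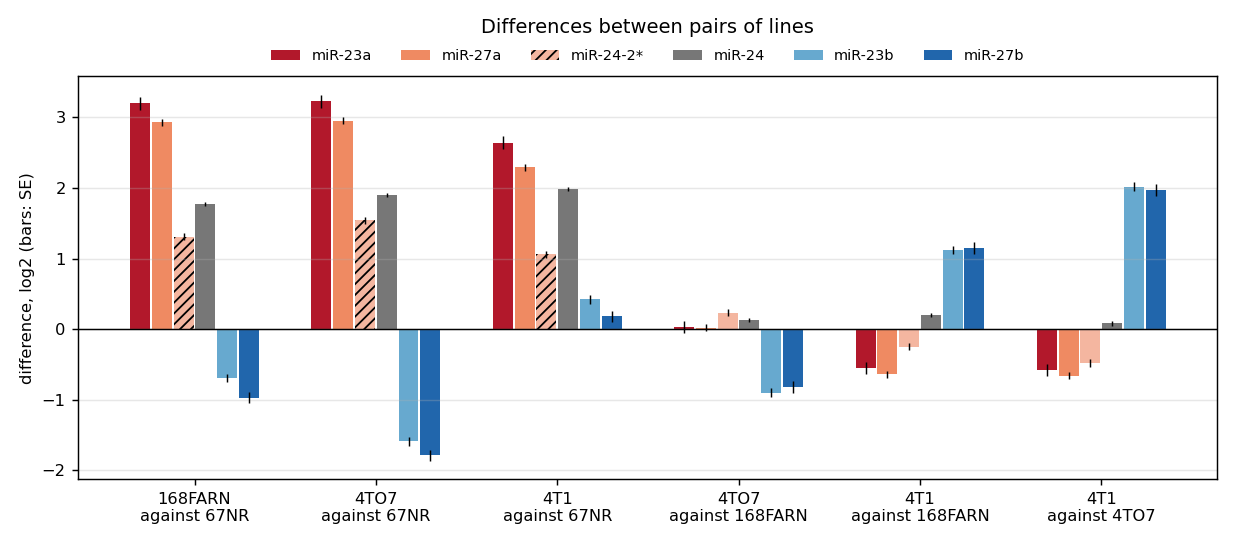
Log2 difference between pairs of lines (vertical axis, with SE) for each member (colour) in the 6 pairs (horizontal axis); hatched bars are against 67NR values of miR-24-2* set to the floor. In 168FARN and 4TO7 against 67NR the chromosome 8 members are higher and miR-23b and miR-27b lower, and against 4TO7 the 4T1 values run the other way, at -0.58 for miR-23a and 2.02 for miR-23b; without scaling miR-23a, miR-27a and miR-24-2* turn to 0.14, 0.06 and 0.24 in 4T1 against 4TO7, to -0.59, -0.6 and -0.38 in 4TO7 against 168FARN, where miR-24 turns to -0.49, and miR-23b and miR-27b to 0.51 and 0.23 in 168FARN against 67NR.

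The ratio of a pair of members on the same array is free of any factor common to an array, so it was used to set the clusters against each other. It was tested as its own limma fit over all 223 other tested miRNAs, and a ratio is compared between lines only, since the probes of different miRNAs need not be equally bright. The log2 ratio of miR-23b to its paralog miR-23a averaged 0.36 ± 0.08 in 67NR, -3.53 ± 0.06 in 168FARN, -4.46 ± 0.07 in 4TO7 and -1.86 ± 0.02 in 4T1. The log2 ratio of miR-27b to its paralog miR-27a averaged 0.37 ± 0.13, -3.53 ± 0.16, -4.37 ± 0.17 and -1.75 ± 0.02 in the same order of lines. Lines did not overlap in either ratio, and both ratios ran highest in 67NR, then 4T1, then 168FARN, and lowest in 4TO7.

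The paralog pairs shifted by closely similar amounts. The ratio of miR-23b to miR-23a was 14.8-fold lower in 168FARN than in 67NR (-3.89 ± 0.09, limma adjusted p = 6.58e-18), and that of miR-27b to miR-27a was 14.9-fold lower (-3.9 ± 0.1, adjusted p = 1.25e-12). In 4TO7 against 67NR they were 28.3-fold (-4.82 ± 0.09, adjusted p = 4.79e-19) and 26.8-fold lower (-4.75 ± 0.1, adjusted p = 1.74e-13). In 4T1 against 4TO7 they were 6.07-fold (2.6 ± 0.09, adjusted p = 6.46e-14) and 6.19-fold higher (2.63 ± 0.1, adjusted p = 4.3e-10). Against 168FARN they were 3.18-fold and 3.44-fold higher in 4T1, and against 67NR 4.66-fold and 4.34-fold lower. 4TO7 had ratios 1.91-fold and 1.8-fold lower than 168FARN. Over the alternatives tried, the shift of miR-23b to miR-23a in 4TO7 against 67NR lay between -4.9 and -3.93, and no shift of either paralog ratio changed sign.

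**Figure D3:**
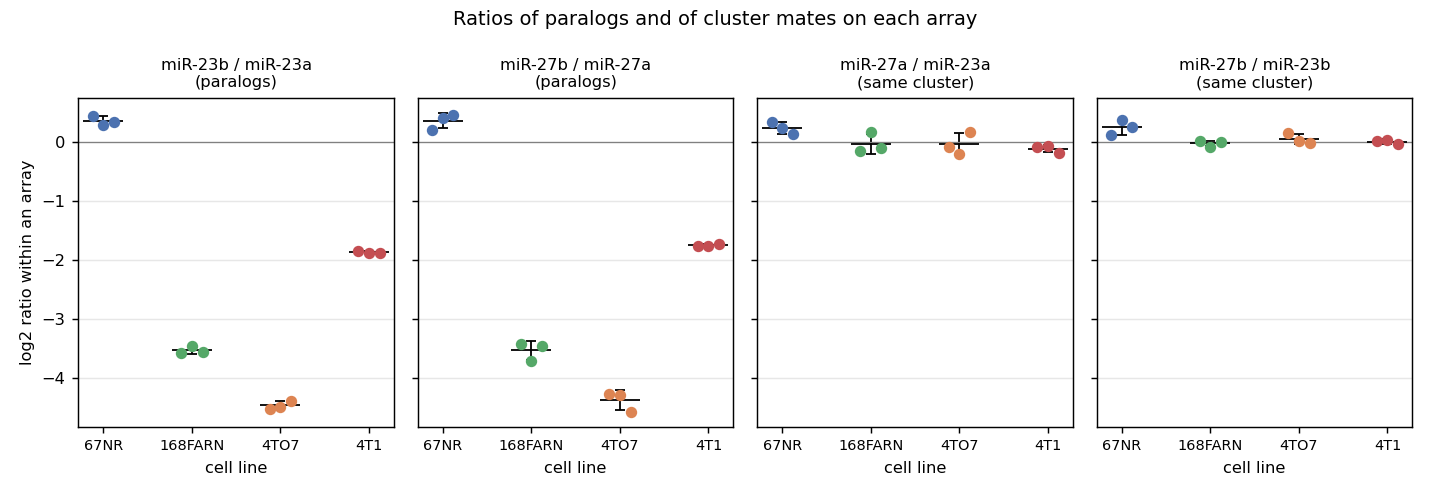
Log2 ratio of a pair of members on each array (vertical axis) in the 4 lines (horizontal axis); points are arrays and bars the mean with its SD. The ratio of the paralogs miR-23b and miR-23a spans 0.36 in 67NR to -4.46 in 4TO7 and that of miR-27b and miR-27a 0.37 to -4.37, while those of the cluster mates miR-27a and miR-23a and of miR-27b and miR-23b stay between -0.1 and 0.26 on average.

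The miR-27 and miR-23 of a cluster differed far less in their ratio between lines than the paralogs did. The log2 ratio of miR-27a to miR-23a averaged 0.24 ± 0.11 in 67NR, -0.02 ± 0.17 in 168FARN, -0.03 ± 0.19 in 4TO7 and -0.1 ± 0.07 in 4T1. It passed the threshold as lower in 168FARN than in 67NR (-0.27 ± 0.11, limma adjusted p = 0.0331), in 4TO7 (-0.27 ± 0.11, adjusted p = 0.0273) and in 4T1 (-0.35 ± 0.11, adjusted p = 0.00711). The first of these lost its call without 67NR replicate 1 (adjusted p = 0.114) or 2 (adjusted p = 0.0676) or without 168FARN replicate 1 (adjusted p = 0.126) or 3 (adjusted p = 0.106). The second lost it without 67NR replicate 1 (adjusted p = 0.0981) or 2 (adjusted p = 0.0579) or 4TO7 replicate 1 (adjusted p = 0.0802) or 2 (adjusted p = 0.115). The ratio did not pass between 168FARN, 4TO7 and 4T1, where the differences were -0.08 ± 0.11 (4T1 against 4TO7), -0.08 ± 0.11 (4T1 against 168FARN) and -0.01 ± 0.11 (4TO7 against 168FARN).

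The log2 ratio of miR-27b to miR-23b averaged 0.26 ± 0.13 in 67NR, -0.02 ± 0.05 in 168FARN, 0.06 ± 0.09 in 4TO7 and 0.01 ± 0.04 in 4T1. It was lower than in 67NR in 168FARN (-0.27 ± 0.07, limma adjusted p = 0.00241), in 4T1 (-0.25 ± 0.07, adjusted p = 0.00514) and in 4TO7 (-0.2 ± 0.07, adjusted p = 0.0178). The call in 4TO7 was lost without 67NR replicate 2 (adjusted p = 0.0986) or 4TO7 replicate 3 (adjusted p = 0.0608). With the slide as a block the differences of 4T1 and 4TO7 from 67NR were -0.19 and -0.15 (adjusted p = 0.195 and 0.327). The other pairs did not pass, with differences of at most 0.08 in size. All 5 other members passed the F test among the lines on their ratio to miR-23a, and so did all 5 on the ratios to miR-27a and to miR-23b. That share is the background itself, since 100% of the 223 other tested miRNAs passed each of these F tests.

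The passenger strand miR-24-2* could be set against its cluster mate miR-23a in 168FARN, 4TO7 and 4T1 alone. The log2 ratio averaged -5.75 ± 0.19 in 168FARN, -5.55 ± 0.16 in 4TO7 and -5.45 ± 0.1 in 4T1. It was higher in 4T1 than in 168FARN (0.31 ± 0.11, limma adjusted p = 0.0188), a call lost with the slide as a block (adjusted p = 0.0853) and without 168FARN replicate 1 (adjusted p = 0.086) or 3 (adjusted p = 0.0735) or 4T1 replicate 1 (adjusted p = 0.0619) or 2 (adjusted p = 0.0665). In 67NR the ratio was -3.86 ± 0.13 with miR-24-2* at the floor, a value set by the floor and not a measured ratio. The fitted differences from 67NR of -1.89 in 168FARN, -1.69 in 4TO7 and -1.58 in 4T1 therefore give no direction.

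miR-27a and miR-27b differ by a single base, and how far the probe of each binds the other miRNA was not tested. The same limit holds for the probes of miR-23a and miR-23b, whose sequences were not compared. On the 4TO7 arrays the signal was 1653 to 1922 units for miR-27a and 80.9 to 87.7 for miR-27b, and on the 67NR arrays it was 128 to 167 for miR-27a and 177 to 223 for miR-27b. Each member has 2 probes on the array. With the second brightest probe, an alternative chosen after seeing the data, 4T1 against 4TO7 gave -0.64 for miR-23a, -0.66 for miR-27a, 2.16 for miR-23b and 2.11 for miR-27b.

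Mature miR-24, which both clusters make, was low in 67NR and close to level in the other 3 lines. Its signal was 222, 222 and 174 on the 67NR arrays, 2021, 1621 and 1266 on the 168FARN arrays, 1085, 1117 and 1232 on the 4TO7 arrays and 2064, 2169 and 1754 on the 4T1 arrays. Its level was -1.03 ± 0.02 in 67NR, 0.74 ± 0.06 in 168FARN, 0.86 ± 0.01 in 4TO7 and 0.94 ± 0.03 in 4T1. 67NR stood far below the rest, and the other lines stood close together without overlapping.

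miR-24 was 3.42-fold higher in 168FARN than in 67NR (1.77 ± 0.03, limma adjusted p = 4.26e-13), 3.73-fold higher in 4TO7 (1.9 ± 0.03, adjusted p = 2.71e-13) and 3.94-fold higher in 4T1 (1.98 ± 0.03, adjusted p = 2.08e-13). It was slightly higher in 4T1 than in 168FARN (0.2 ± 0.03, adjusted p = 0.000231), a call lost without scaling (adjusted p = 0.115). 4TO7 was slightly higher than 168FARN (0.13 ± 0.03, adjusted p = 0.00644), but lower by -0.49 without scaling. 4T1 against 4TO7 did not pass (0.08 ± 0.03, adjusted p = 0.0735). That difference did pass with other scalings, at 0.36 with the percentile of all probes, 0.34 after quantile normalization and 0.8 without scaling. Without 168FARN replicate 2 or 3, which enter the shared spread, it stayed at 0.08 and passed (adjusted p = 0.0214 and 0.0231).

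The difference of miR-24 lay between those of miR-23a and miR-23b in 5 of the 6 pairs of lines, and between those of miR-27a and miR-27b in 5 of 6. In 4TO7 against 67NR, for example, the log2 differences were 3.23 for miR-23a, 1.9 for miR-24 and -1.59 for miR-23b. In 4T1 against 4TO7 they were -0.58, 0.08 and 2.02. The exception was 4TO7 against 168FARN, at 0.03, 0.13 and -0.9. The pairs share arrays and are not independent of each other. How many other tested miRNAs also lay between the paralogs was not counted, so these counts do not set miR-24 apart.

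Set against the chromosome 8 cluster, the ratio of miR-24 to miR-23a was higher in 4T1 than in 4TO7 (0.66 ± 0.11, limma adjusted p = 3.82e-05) and than in 168FARN (0.76 ± 0.11, adjusted p = 5.19e-06). It was lower than in 67NR in 4T1 (-0.67 ± 0.11, adjusted p = 1.07e-05), in 4TO7 (-1.33 ± 0.11, adjusted p = 1.04e-09) and in 168FARN (-1.43 ± 0.11, adjusted p = 4.06e-10). Set against the chromosome 13 cluster, the ratio of miR-24 to miR-23b was 3.84-fold lower in 4T1 than in 4TO7 (-1.94 ± 0.07, adjusted p = 9.86e-13) and 11.3-fold higher in 4TO7 than in 67NR (3.49 ± 0.07, adjusted p = 1.08e-15).

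The array carries 3 further passenger strands of these hairpins, and none was read on all 3 arrays of a line, so none was tested. miR-27a* and miR-27b* were not well above background on any array, with signals of their brightest probes between -2.37 and 2. The brightest probe of miR-24-1*, the strand shown above from the chromosome 13 copy of miR-24, was well above background on 2 of the 3 4T1 arrays and on no other array. Its other probe was so on no array, and after scaling all values of both probes lay below the floor. The signal of the brightest probe was 2.8, 2.34 and 1.38 on the 67NR arrays, 9.19, 6.71 and 4.33 on the 168FARN arrays, 4.48, 3.78 and 4.01 on the 4TO7 arrays and 17, 18.6 and 12.6 on the 4T1 arrays. The 4T1 arrays were the brightest for this strand as for miR-23b and miR-27b, while miR-24-2*, from the chromosome 8 copy, was read in 168FARN, 4TO7 and 4T1.

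The study's labels set 1 metastatic line against 3 non-metastatic ones. In 4T1 against the mean of 67NR, 168FARN and 4TO7, all 6 members were called higher, miR-24-2* only with its 67NR values at the floor, where 28.1% of all tested miRNAs were called higher, 59.4% lower and 87.5% in either direction. Their median difference was 0.63, against -0.34 over all 224. The largest differences were those of miR-23b (1.19 ± 0.05, limma adjusted p = 4.88e-10) and miR-27b (1.1 ± 0.07, adjusted p = 3.33e-08), followed by miR-24 (0.75 ± 0.03, adjusted p = 3.6e-10), and the 4T1 arrays of these 3 lay above all 9 others, as did those of 8.48% of all tested miRNAs. For miR-23a (0.5 ± 0.07), miR-27a (0.33 ± 0.04) and miR-24-2* the 4T1 arrays overlapped the others, and no fold is given for miR-24-2*, which 67NR did not read.

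The calls of the last 3 rested on 67NR. Without the 67NR arrays the differences were -0.57 for miR-23a, -0.65 for miR-27a and -0.36 for miR-24-2*, all called lower. miR-23b (1.57), miR-27b (1.56) and miR-24 (0.14) were still called higher in 4T1 without them. miR-24-2* also lost its call without 4T1 replicate 2 (adjusted p = 0.0944), with the slide as a block (adjusted p = 0.165) and with the mean of all probes (adjusted p = 0.721), and turned to -0.22 with the floor at 2 times its value and to -0.36 under normexp. Of the 6 members only miR-23b was called higher in 4T1 than in each of the other lines taken singly, as were 17 of all 224 tested miRNAs (7.59%), and on the gene-level total signal its difference from 67NR no longer passed (adjusted p = 0.682).

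Pair by pair, 5 members were called in 4T1 against 4TO7, 2 higher and 3 lower, where 60.7% of all tested miRNAs were called (25.0% higher and 35.7% lower). In 4T1 against 168FARN all 6 were called, 3 higher and 3 lower, with a background of 74.1% (34.4% higher and 39.7% lower). In 4T1 against 67NR 5 were called, all higher, with a background of 79.5% (32.1% higher and 47.3% lower). In 4TO7 against 168FARN 4 were called, 2 higher and 2 lower, with a background of 74.6% (35.3% higher and 39.3% lower). In 4TO7 against 67NR all 6 were called, 4 higher and 2 lower, with a background of 79.9% (31.7% higher and 48.2% lower). In 168FARN against 67NR all 6 were called, again 4 higher and 2 lower, with a background of 87.9% (40.2% higher and 47.8% lower). All 6 passed the F test among the 4 lines, as did 96.9% of all tested miRNAs. These shares are so high that being called sets no member apart, and the members are told apart by the size and direction of their differences.

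**Figure D4:**
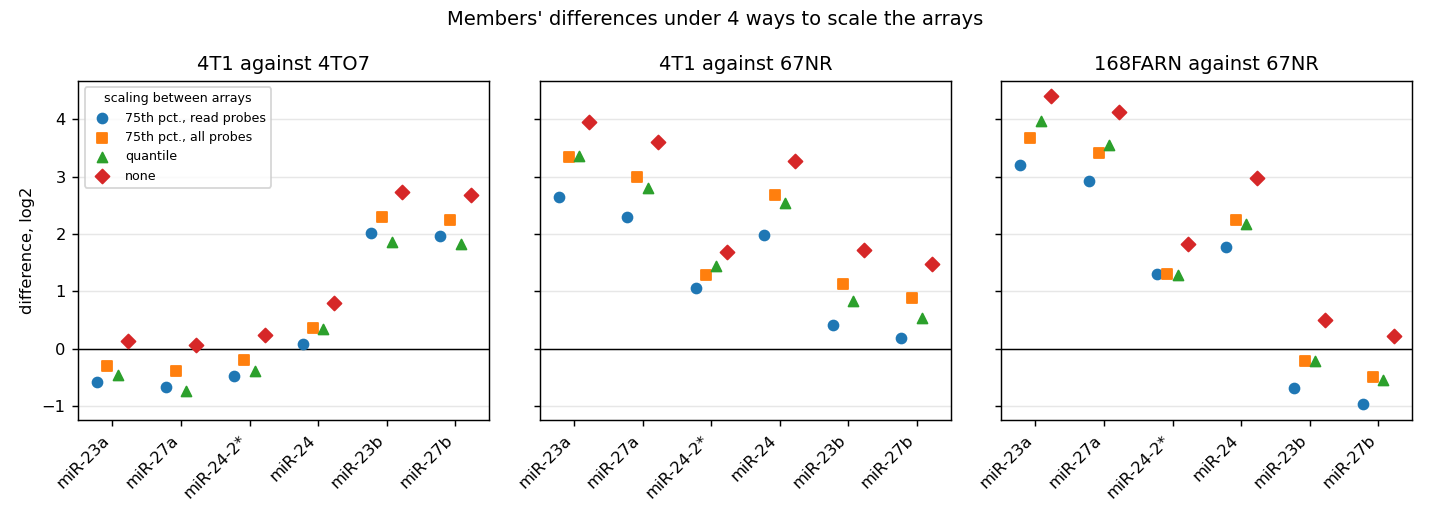
Log2 difference of each member (horizontal axis) in 3 pairs of lines under 4 ways of scaling the arrays (markers; vertical axis, log2). Leaving out the scaling moves all members of a pair up, miR-24-2* by less than the others against 67NR, where its values stand at the floor. miR-23a in 4T1 against 4TO7 is -0.58 with scaling and 0.14 without. miR-23b in 168FARN against 67NR is -0.69 with scaling and 0.51 without, while the distance between miR-23a and miR-23b stays.

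Only 1 168FARN array shared the slide of the 67NR arrays, which allows the clusters to be compared within that slide, as an alternative chosen after seeing the data. There, 168FARN against 67NR gave 3.27 for miR-23a, 2.89 for miR-27a, 1.77 for miR-24, -0.67 for miR-23b and -0.91 for miR-27b, close to the values over both slides. All 4T1 and 4TO7 arrays lay on the second slide, where the same members gave -0.58, -0.66, 0.08, 2.02 and 1.97 in 4T1 against 4TO7. These are the same arrays and values as in the main comparison, so they are no further check. 67NR shares no slide with 4TO7 or 4T1, so those pairs have no value within a slide. With the slide as a block, 4T1 against 67NR gave 2.75 for miR-23a and 0.46 for miR-23b, and 4TO7 against 67NR gave 3.33 and -1.55.

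Across the 12 arrays, the level of miR-23b was most like that of miR-27b of all 223 other tested miRNAs (Pearson r = 0.988). The arrays fall into 4 lines, so each r describes mainly the order of the lines and carries no p. Among non-members, miR-362-5p (0.898), miR-132 (0.896) and miR-181c (0.878) came next for miR-23b. For miR-27b they were miR-338-3p (0.911), miR-532-5p (0.91) and miR-132 (0.888). miR-132, miR-181c and miR-338-3p stood at the floor in 168FARN and 4TO7, and miR-362-5p stood next to it in 4TO7 (-5.57 ± 0.02). The r of these 4 miRNAs therefore rest in part on arrays at or next to the floor.

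The level of miR-23a was most like that of miR-709 (r = 0.997), then of its cluster mate miR-27a (0.995) and of let-7b and miR-193 (0.994 each). For miR-27a the closest non-members were miR-709 (0.996), miR-193 (0.994) and let-7a (0.993). For miR-24 they were miR-101b (0.999), which stood at the floor in 67NR, let-7d (0.998) and miR-31 (0.997), with miR-23a at rank 18. For miR-24-2*, whose 67NR values stand at the floor, they were miR-193 (0.992), let-7f (0.988) and let-7a (0.985), and miR-27a ranked 2. Members of opposite clusters had r of -0.698 to -0.489, without miR-24.

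The seed of miR-27 overlaps that of miR-128, a miRNA abundant in brain, which begins with the bases UCACAG that are bases 2 to 7 of miR-27. It is encoded at chr1:128202404-128202424 on the plus strand and at chr9:112118644-112118664 on the minus strand.
miR-128: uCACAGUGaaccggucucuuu

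miR-128 was high in the line where miR-27a was low. miR-27b, with the same seed as miR-27a, did not share that contrast. Its level was higher in 67NR (-1.1) than in 168FARN (-2.07) and 4TO7 (-2.89), but not than in 4T1 (-0.92). Without scaling its difference in 168FARN against 67NR was 0.23. miR-673-5p, which also holds these bases and is on the array, did not pass the filter. The level of miR-128 was -0.75 ± 0.06 in 67NR, -3.86 ± 0.11 in 168FARN, -4.21 ± 0.04 in 4TO7 and -4.33 ± 0.03 in 4T1. It was 8.64-fold lower in 168FARN than in 67NR (-3.11 ± 0.06, limma adjusted p = 2.01e-13) and 11.9-fold lower in 4T1 than in 67NR (-3.58 ± 0.06, adjusted p = 8.68e-14).

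miR-23a and miR-23b have been reported as repressed by Myc in human lymphoma and prostate cancer cells, which need not hold in these lines. For that reason 2 lists of other miRNAs reported under Myc were counted beside the members. The share of all tested miRNAs called in each direction is as given above. Of the 6 tested members of the miR-17 cluster, which Myc activates, all 6 were lower than in 67NR in 168FARN (median -4.07, background 47.8% lower), in 4TO7 (median -2.62, background 48.2%) and in 4T1 (median -2.81, background 47.3%). All 6 were higher than in 168FARN in 4TO7 (median 1.31, background 35.3% higher) and in 4T1 (median 1.13, background 34.4%). In 4T1 against 4TO7 1 was higher and 4 were lower (median -0.21, backgrounds 25.0% and 35.7%). These 6 miRNAs share a cluster and are not independent of each other, so their counts are not 6 separate results.

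Of 20 tested miRNAs reported as repressed by Myc, among them let-7a, 12 were higher and 7 lower in 168FARN than in 67NR (median 1.07, backgrounds 40.2% and 47.8%). In 4TO7 against 67NR 8 were higher and 10 lower (median -0.12, backgrounds 31.7% and 48.2%). In 4T1 against 67NR 9 were higher and 11 lower (median -0.29, backgrounds 32.1% and 47.3%). In 4TO7 against 168FARN 4 were higher and 12 lower (median -0.3, backgrounds 35.3% and 39.3%), and in 4T1 against 168FARN 4 and 15 (median -0.37, backgrounds 34.4% and 39.7%). In 4T1 against 4TO7 8 were higher and 10 lower (median -0.13, backgrounds 25.0% and 35.7%). The medians over all tested miRNAs lay between -0.12 and 0 in these 6 pairs. The arrays do not measure Myc, and its part in the differences of the members was not tested.

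Members of the miR-23 and miR-27 families have also been reported to respond to hypoxia. Of 7 tested miRNAs of a hypoxia list, 6 were lower in 168FARN than in 67NR, where 47.8% of all tested miRNAs were lower. In 4TO7 against 67NR 5 were lower (background 48.2%), and in 4T1 against 67NR 1 was higher and 5 were lower (backgrounds 32.1% and 47.3%). In 4TO7 against 168FARN 1 was higher and 2 were lower (backgrounds 35.3% and 39.3%). In 4T1 against 168FARN 3 were higher and 3 lower (backgrounds 34.4% and 39.7%). In 4T1 against 4TO7 3 were higher and 2 lower (backgrounds 25.0% and 35.7%). The part of hypoxia in the differences of the members was not tested.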

How the data were processed

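The deposited files hold the brightness of each spot of 12 one-colour Agilent miRNA arrays. These deposited values are intensity readings that Feature Extraction 10.2.1.3 had already corrected for a spatially detrended background, per the file headers, and that are not scaled between arrays. The series' value table equals these signals (largest difference 0) and was not used further.

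Control spots and outlier spots were left out, and the spots of a probe were averaged. Arrays were scaled by the 75th percentile given above, floored at 0.0209 (log2 -5.58) and put on the log2 scale, with the brightest probe standing for a miRNA. Spots of a member's brightest probe varied within an array by a median CV of 4.05%. limma 3.58.1 in R 4.3.3 fitted the 4 lines to all 12 arrays (8 residual degrees of freedom) and called differences at an adjusted p below 0.05. For a miRNA unread in a line, the fold is a lower bound, taken over the lowest signal well above background on each unread array. The precision is limited by 3 arrays for each line.

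The fits were checked on simulated data. The members and lists were chosen with earlier results of these data known. Named are the members, passenger strands of their hairpins, miR-128 as a miRNA whose seed overlaps that of miR-27 (picked after its values were seen) and the 3 non-members most like each member. Repeat numbers did not pair the arrays: 6 of 18 pairs of like-numbered arrays had deviations correlated above 0.1.

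The alternatives were other scalings, normexp background correction (offset 50), gene-level total signals, other probes, floors and filters, the slide, a replicate block, single arrays left out, only the lines compared, a trended robust variance, and the second brightest probe and first slide alone, both added after seeing the data.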

Additional observations from a re-analysis of the deposited data

How the results depend on the processing

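The number of members called stayed within 1.5 times the reported one under all alternatives but these: 3 instead of 5 in 4T1 against 4TO7 without scaling, and 3 instead of 5 for the F test of ratios to miR-23a on the second slide only and without the 67NR arrays, where fewer lines enter. Leaving out single arrays gave 5 to 6 members called in 4T1 against the mean, 5 to 6 against 4TO7, 6 to 6 against 168FARN, 5 to 6 against 67NR, 4 to 4 in 4TO7 against 168FARN, 6 to 6 in the other pairs and in the F test, and 4 to 5 in each ratio. With the replicate number as a block the counts were 6 in 4T1 against the mean, 5, 6 and 5 against 4TO7, 168FARN and 67NR, 4 in 4TO7 against 168FARN, 6 in the other pairs and the F test, and 4, 4 and 5 for ratios to miR-23a, miR-27a and miR-23b. The block ended the call of the ratio of miR-27a to miR-23a in 168FARN against 67NR (adjusted p = 0.0579). Of the repeat numbers, 2 of 12 arrays correlated best with their own number, so the numbers are shared by name only.

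Without scaling, 4T1 against 4TO7 gave 0.14 for miR-23a, 0.06 for miR-27a and 0.24 for miR-24-2*; 4TO7 against 168FARN gave -0.59 for miR-23a, -0.6 for miR-27a, -0.49 for miR-24 and -0.38 for miR-24-2*; 168FARN against 67NR gave 0.51 for miR-23b and 0.23 for miR-27b. The median of all tested miRNAs moved with it by 0.34, -0.5 and 0.41 in these pairs, and by 0.62 in 4T1 against the mean, where 111 were called higher and 66 lower, against 63 and 133 with scaling. After quantile normalization that split was 89 and 106, and with the percentile of all probes 93 and 98. In 4T1 against 4TO7 it was 105 and 7 without scaling, against 56 and 80 with it. Of miR-24-2*, near the background, 4T1 against 168FARN was 0.16 after quantile normalization, and normexp gave -0.36 in 4T1 against the mean, -0.37 in 4T1 against 67NR and -0.23 in 168FARN against 67NR. A floor 2 times as high gave -0.22 and the second brightest probe -0.08 in 4T1 against the mean, and the slide as a block 0.08 (adjusted p = 0.165). The gene-level total signal turned miR-27b in 4T1 against 67NR to -0.24 and the ratio of miR-24-2* to miR-23a to 0.37 in 4T1 against the mean, 0.68 in 4T1, 0.58 in 4TO7 and 0.35 in 168FARN against 67NR. Without the 67NR arrays 4T1 against the mean gave -0.57 for miR-23a, -0.65 for miR-27a, -0.36 for miR-24-2* and 0.21 for the ratio of miR-24-2* to miR-23a. The cause of these changes was not tested. Values near the floor, above all those of miR-24-2* and miR-24-1*, are limited by signal over background.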
